A study of Mus musculus with 2 samples.

Results

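The miR-17-92 polycistron is a run of 6 microRNA genes, Mir17, Mir18, Mir19a, Mir20a, Mir19b-1 and Mir92-1, that lie within the non-coding host gene Mir17hg on mouse chromosome 14. The members were taken by name, and all 6 were found among the 1973 genes counted. They were measured by microRNA sequencing of whole liver from healthy B6NCrl mouse embryos at 13.5 days, in 2 libraries made from separate tissue samples, each pooling male and female embryos. RNA below 30 bases was selected, no treatment was given, and both libraries belong to 1 group, so levels are described and no conditions are compared. How many embryos entered each pool, and whether the pools came from separate litters, is not given in the sources used here. The spread between the libraries may therefore be partly technical.

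A microRNA gene is transcribed as part of a longer RNA, in which each hairpin is cut out by Drosha and trimmed by Dicer to a mature strand from its 5p or 3p arm. The hairpins of a polycistron start out on a shared primary transcript, but each is cut out and its product stabilised or degraded on its own. Bases 2 to 8 of the mature strand, the seed, set most of its targets, and microRNAs with the same seed form a family. The miR-17-92 polycistron is induced by Myc and E2F factors, promotes proliferation and survival, and is needed for B cell development in the fetal liver and for normal growth of heart and lung. Among its targets is the proapoptotic gene Bcl2l11. Blood formation in the midgestation embryo takes place mainly in the liver, which therefore holds dividing blood precursors beside hepatocytes, endothelium and mesenchyme.

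The mature strands are shown because their seeds sort the 6 genes into 4 families and because 2 of them are not specific to this locus. For each gene the arm known as the main product is given, from RefSeq on GRCm38.p6 (the build called mm10), 5′ to 3′, with the seed in capitals.
miR-17-5p (Mir17): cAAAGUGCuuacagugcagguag
miR-20a-5p (Mir20a): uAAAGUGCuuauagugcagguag
miR-18a-5p (Mir18): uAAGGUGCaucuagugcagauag
miR-19a-3p (Mir19a): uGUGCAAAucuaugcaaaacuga
miR-19b-3p (Mir19b-1): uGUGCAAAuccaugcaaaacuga
miR-92a-3p (Mir92-1): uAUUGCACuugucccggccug
Counted from the 5′ end, miR-20a-5p differed from miR-17-5p at 2 of 23 positions, C1U and C12U, both outside the seed. The miR-19 strands differed at 1 position, U11C from miR-19a-3p to miR-19b-3p. The seed of miR-18a-5p differs from that of miR-17-5p by A4G, and the whole strands differ at 6 positions.

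All hairpins lie on the plus strand, inside Mir17hg, within 836 bases. In transcript order Mir17 (ENSMUSG00000065508.1) occupies 115043671 to 115043754, Mir18 (ENSMUSG00000065403.1) 115043851 to 115043946, and Mir19a (ENSMUSG00000065416.1) 115044000 to 115044081. They are followed by Mir20a (ENSMUSG00000065442.1) at 115044157 to 115044263, Mir19b-1 (ENSMUSG00000076256.1) at 115044305 to 115044391, and Mir92-1 (ENSMUSG00000076062.1) at 115044427 to 115044506. The gaps between neighbours, in transcript order, are 96, 53, 75, 41 and 35 bases. The Mir17 hairpin is shown with both annotated mature arms in capitals, since the deposited counts combine the arms of a hairpin.
Mir17 hairpin: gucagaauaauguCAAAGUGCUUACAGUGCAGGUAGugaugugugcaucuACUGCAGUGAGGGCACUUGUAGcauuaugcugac

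Sense counts of all annotated microRNA genes came to 2607403 and 4286742, of which the 6 members took 219571 in replicate 1 and 413576 in replicate 2. Marker microRNAs of hepatocytes (Mir122), endothelium (Mir126a), red cell precursors (Mir451a, Mir144), myeloid cells (Mir223) and mesenchyme (Mir143) were present in both libraries, with Mir192 of hepatocytes and Mir140 of mesenchyme, at 2634 CPM (Mir192, replicate 1) to 80145 CPM (Mir122, replicate 2), where CPM is counts per 1000000 of this total. The red cell precursor markers did not move together: Mir451a stood at 10750 CPM in replicate 1 and 26342 CPM in replicate 2, Mir144 at 6405 and 5873 CPM. In whole tissue, more cells of a type and more RNA per cell cannot be told apart. Another 2819005 and 4017413 reads mapped to several places and were given to no gene, 1.08 and 0.937 times the total used here. How many of them came from members is not known. No member had a count on the opposite strand.

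The cluster held 8.42% of counts in replicate 1 (95% exact Clopper-Pearson interval 8.39 to 8.45) and 9.65% in replicate 2 (9.62 to 9.68), a mean of 9.03% ± 0.867 (SD, n = 2). Without molecular identifiers, these intervals describe counting error alone. The libraries thus lay farther apart than counting error. All 6 members passed the detection limit of 10 counts in each library, which 367 of 1973 genes did. By mean level, the median member stood at 8140 CPM and the median detected gene at 150.03 CPM.

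**Figure D1:**
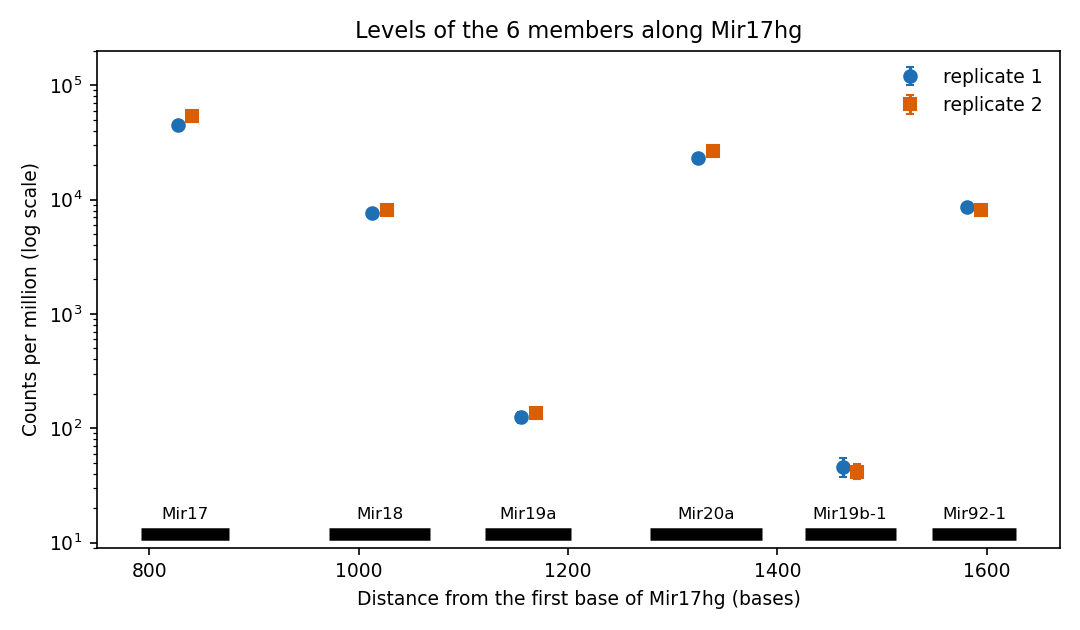
The level of each member in counts per 1000000 (log axis) is plotted against its distance in bases from the first base of Mir17hg, for replicate 1 (circles) and replicate 2 (squares). Error bars are 95% counting intervals, mostly smaller than the symbols, and black bars mark the hairpins. Levels go down from Mir17 to Mir19a, up at Mir20a, down at Mir19b-1 and up at Mir92-1. Both miR-19 genes lie at or below 136 CPM while the other 4 lie at or above 7700 CPM.

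The miR-17 seed pair carried most of the counted reads of the cluster. Mir17, the first hairpin and the founding member of its family, had 116642 counts in replicate 1 and 229267 in replicate 2, or 44735 and 53483 CPM. It was the highest member by count in both libraries and ranked 4 and 3 among all counted genes. Mir20a, the fourth hairpin, had 59782 and 114182 counts, or 22928 and 26636 CPM, at ranks 10 and 8. Within the cluster Mir17 made up 53.1% and 55.4% of counts, and Mir20a 27.2% and 27.6%. Together this pair held 81.7% ± 1.91 of the counts of the cluster (SD, n = 2). Reads of Mir92-1 and Mir19b-1 that mapped to several places are not in these shares, which may therefore be too high. The ratio of Mir17 to Mir20a was 1.95 in replicate 1 and 2.01 in replicate 2, while both levels were higher in replicate 2. In log2 it was 0.98 ± 0.03 (SD, n = 2).

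Mir18 and Mir92-1 formed a middle tier by counted reads. Mir18, the second hairpin, whose processing is known to depend on the RNA-binding protein hnRNP A1, had 20076 and 34842 counts, or 7700 and 8128 CPM. Mir92-1, the last hairpin, which yields the miR-92a known from endothelial cells, had 22626 and 34522 counts, or 8678 and 8053 CPM. Their order changed between the libraries: Mir92-1 was 1.13-fold higher in replicate 1 and Mir18 was 1.01-fold higher in replicate 2. They could not be ranked, with a log2 ratio of Mir92-1 to Mir18 of 0.08 ± 0.13 (SD, n = 2). Mir17 stood 5.81-fold and 6.58-fold above Mir18, its direct neighbour.

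The miR-19 genes were far below the rest. Mir19a, the third hairpin, had 326 and 584 counts, or 125 and 136 CPM, at ranks 192 and 189 of all genes. Mir19b-1, the fifth, had 119 and 179 counts, or 45.6 and 41.8 CPM, at ranks 231 and 236. Their counting intervals were 112 to 139 and 125.4 to 148 CPM for Mir19a, and 37.8 to 54.6 and 35.9 to 48.3 CPM for Mir19b-1. These do not meet, so Mir19a had more counted reads in both libraries, by 2.74-fold and 3.26-fold. The intervals do not cover reads of Mir19b-1 that mapped to several places and were not counted. Which gene had the higher level was therefore not tested. Mir19a and Mir19b-1 together made up 0.203% and 0.184% of the cluster. Mir17 exceeded Mir19a by 358-fold and 393-fold, and Mir19b-1 by 980-fold and 1281-fold. Apart from Mir18 and Mir92-1, every pair of members kept its order in both libraries.

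Along the transcript the levels did not run in 1 direction: they were lower at each step from Mir17 to Mir19a, higher at Mir20a, lower at Mir19b-1 and higher again at Mir92-1. Mir17 lay above Mir18 by 2.63 ± 0.13 in log2 (SD, n = 2). Mir18 in turn lay above Mir19a by 5.92 ± 0.03 in log2. The log2 ratio of Mir19a to Mir20a was -7.56 ± 0.07, so Mir20a lay 183-fold and 196-fold above the hairpin before it. Mir20a exceeded Mir19b-1 by 9.14 ± 0.24 in log2, the largest step between neighbours. The log2 ratio of Mir19b-1 to Mir92-1 was -7.58 ± 0.01, or 190.1-fold and 193-fold. All 5 steps kept their sign in both libraries, and the smallest relative to its spread, from Mir17 to Mir18, was 20.7 times its SD. Such an SD covers only the spread of 2 libraries, and does not show reads of Mir19b-1 or Mir92-1 left out of the counts in both. With 2 libraries no exact two-sided test can give a p below 0.5, and none was run on these ratios.

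Copies of the mature strand elsewhere in the genome touch Mir92-1 and Mir19b-1. Hairpins of 2 of the 6 members shared a word of 20 bases with another annotated microRNA locus, both with the paralogous cluster on chromosome X: Mir92-1 with Mir92-2 and Mir19b-1 with Mir19b-2. The stretches around these mature strands, with 6 bases on each side and the bases that differ between the loci in capitals, show how little separates them (RefSeq, GRCm38.p6).
Mir92-1, chr14:115044470-115044502, plus strand: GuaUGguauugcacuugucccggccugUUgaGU
Mir92-2, chrX:52741848-52741880, minus strand: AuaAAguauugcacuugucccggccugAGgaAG
Mir19b-1, chr14:115044352-115044386, plus strand: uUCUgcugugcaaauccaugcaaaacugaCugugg
Mir19b-2, chrX:52741985-52742019, minus strand: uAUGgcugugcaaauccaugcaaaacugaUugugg
The identical run was 22 bases at Mir92-1 and 25 bases at Mir19b-1, against mature strands of 21 and 23 bases. A read of exactly the annotated miR-92a-3p or miR-19b-3p matches both loci, and in each pair the base just after the mature strand already differs. The deposited tables keep reads that map to several places out of the gene counts, so the counts of these 2 genes are uncertain and may be too low. How many reads each of them lost in this way was not measured.

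Mir19a had no such copy. Its longest run shared with a microRNA hairpin at another locus was 13 bases, with Mir19b-2, as short as for Mir17 at 13 bases and shorter than for Mir18 and Mir20a at 17 bases each. Places outside annotated microRNA genes were not examined, and how many mismatches the alignment allowed is not given in the sources used here, so a count that is too low cannot be told apart from a low level. The stretch of its family member and neighbour on the transcript, Mir19b-1, is compared here over the same window, again with differing bases in capitals.
Mir19a, chr14:115044042-115044076, plus strand: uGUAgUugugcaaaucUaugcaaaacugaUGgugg
Mir19b-1, chr14:115044352-115044386, plus strand: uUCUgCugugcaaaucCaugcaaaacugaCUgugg
Among the 4 members without a shared word, the order was Mir17, Mir20a, Mir18 and Mir19a in both libraries.

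The hairpins themselves differed little in composition. Their lengths ran from 80 bases (Mir92-1) to 107 (Mir20a) and their GC content from 43.7% (Mir19b-1) to 47.5% (Mir92-1). The minimum free energy predicted by RNAfold was lowest for Mir19a at -38.7 kcal/mol and highest for Mir18 at -29.2 kcal/mol, with Mir20a at -38.6, Mir19b-1 at -37.8, Mir17 at -36.7 and Mir92-1 at -34 kcal/mol. The 3 members whose main product is the 5p arm were Mir17, Mir18 and Mir20a, and the 3 with a main 3p product were the miR-19 genes and Mir92-1. The deposited counts do not separate arms, so arm use was not measured.

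Seen by family, this locus supplied most of the counted reads of all 4 seeds. In the miR-17 family, 71.4% ± 1.41 of counts lay in Mir17hg (SD, n = 2), and the remainder came mainly from the miR-106b-25 cluster in Mcm7, with Mir93 at 18260 ± 2017 CPM and Mir106b at 10801.5 ± 600 CPM. Its X-linked genes Mir106a and Mir20b stood at 240.3 ± 22.03 and 192 ± 46.7 CPM. In the miR-18 family, 99.7% ± 0.00454 lay in Mir17hg, since Mir18b had 52 and 88 counts. In the miR-19 family it was 97.4% ± 0.276, with Mir19b-2 at 11 and 22 counts. In the miR-92 family it was 81.7% ± 0.403, ahead of Mir25 at 954 ± 5.09, Mir32 at 355 ± 28.9, Mir92-2 at 266 ± 22.8, Mir363 at 178 ± 15.8 and Mir92b at 123 ± 77.0 CPM. The miR-92 share and the Mir19b-1 part of the miR-19 share rest on reads placed at 1 of 2 near-identical loci. Mir19a, which shares no word, held 71.5% and 74.4% of the counts of the miR-19 family. Reads of miR-19b-3p or miR-92a-3p that mapped to several places are missing from these shares. Mir6383 and Mir367 carry the miR-17 and the miR-92 seed in RefSeq and had 0 counts in both libraries. A count of 0 allows 3 counts, which correspond to 1.15 CPM (replicate 1) and 0.700 CPM (replicate 2).

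**Figure D2:**
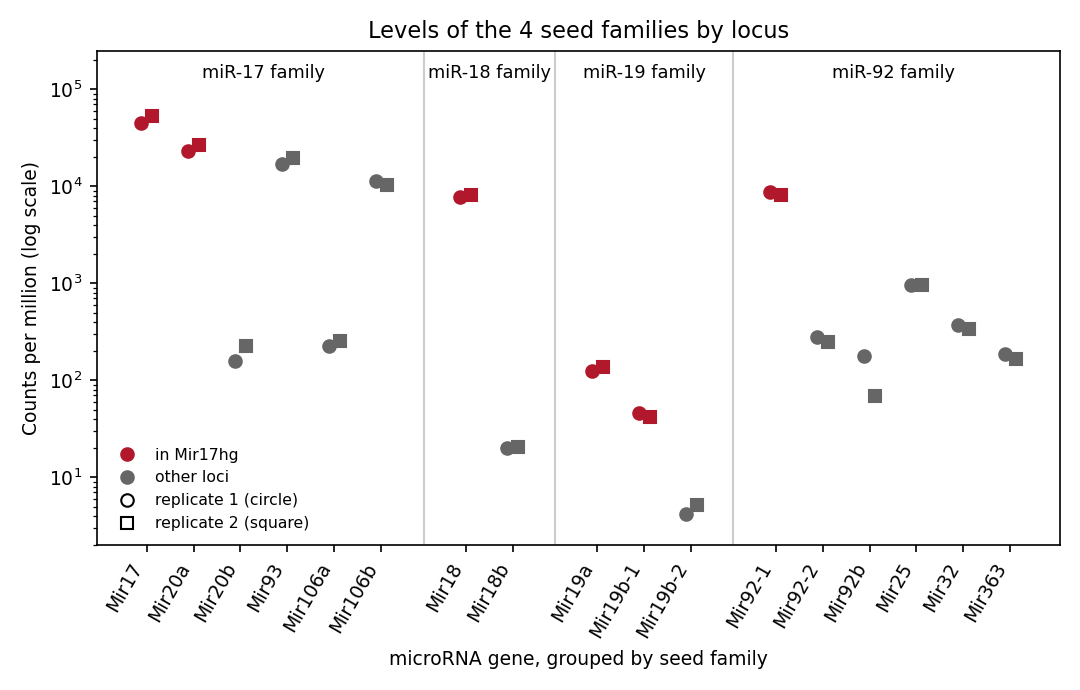
Each symbol is the level of a microRNA gene in counts per 1000000 (log axis), grouped by seed family, in replicate 1 (circles) and replicate 2 (squares). Genes in Mir17hg are red and genes at other loci grey. The red genes lead every family, and the whole miR-19 family lies at or below 136 CPM.

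The X-linked cluster repeats the layout of miR-17-92 without a Mir19a, so members were set beside their counterparts. Mir17 exceeded Mir106a by 199-fold and 209-fold, Mir18 exceeded Mir18b by 386-fold and 396-fold, and Mir20a exceeded Mir20b by 144-fold and 118-fold. For the pairs with identical mature strands the values were 30.8-fold and 32.3-fold for Mir92-1 over Mir92-2 and 10.8-fold and 8.14-fold for Mir19b-1 over Mir19b-2, whose counts were 11 and 22. Reads that mapped to both loci of such a pair were not counted, so these values cannot be set against those of the other pairs. The miR-19b gene had the lowest count of its cluster at both loci.

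Clusters of microRNA genes elsewhere also held uneven levels, though whether each shares a transcript was not examined. Detected microRNA genes on the same strand were joined where neighbours lay within 10 kb, which gave 15 clusters of at least 3 genes. From its highest to its lowest gene, miR-17-92 spanned 10.13 ± 0.27 in log2 (SD of the 2 libraries), or 1124-fold, against a median of 5.83 in log2 over the 15 clusters. Only the cluster from Mir379 to Mir3072, with 30 detected genes and a span of 12.10, and that from Mir322 to Mir450b, with 7 and a span of 11.06, spanned more. The smallest span was that of Mir183 to Mir182, at 1.26. The X-linked cluster Mir106a to Mir363, with 6 genes like miR-17-92, spanned 5.83. With members that share a word left out of all clusters, miR-17-92 spanned 8.55 in log2, from Mir17 to Mir19a, and ranked 2 of 11 clusters. This is a description, since clusters of more genes and of rarer genes differ in the span they can show.

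**Figure D3:**
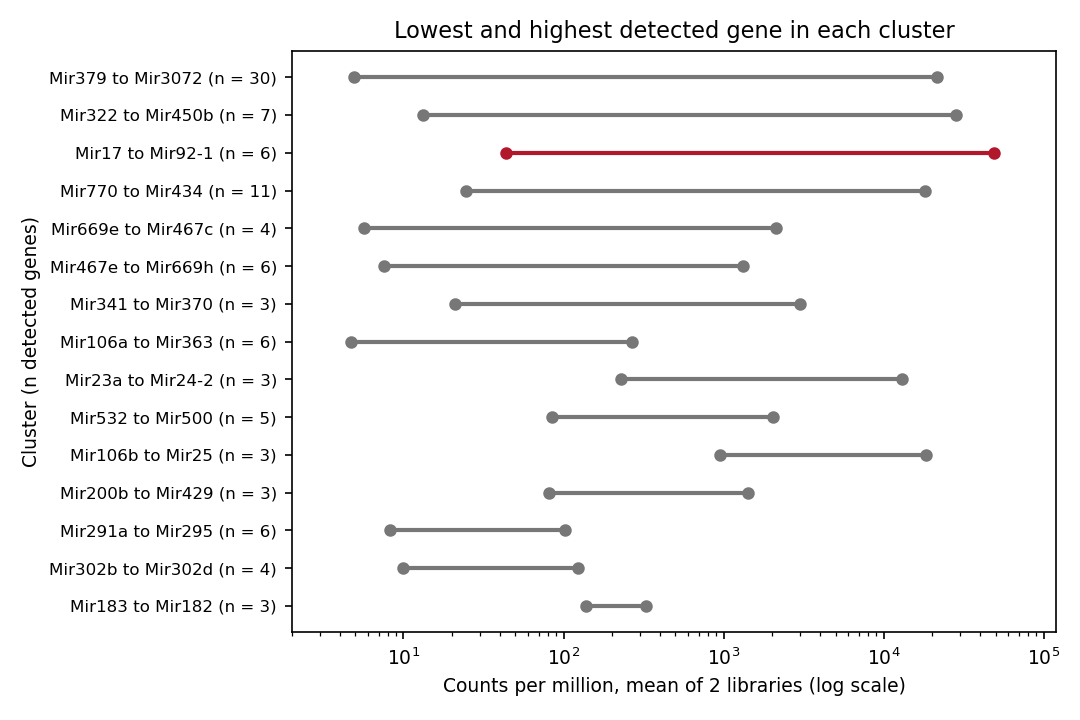
Each bar runs from the lowest to the highest detected gene of a cluster, in mean counts per 1000000 of the 2 libraries (log axis), for the 15 clusters ordered by span, with the number of detected genes in brackets. The red bar of miR-17-92 is the third longest and ends at the highest level of all, that of Mir17.

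Between the libraries, 4 of the 6 members differed beyond counting error (two-sided exact binomial test of each gene's split of counts, Benjamini-Hochberg adjustment over 711 genes with a count, adjusted p under 0.05). Among all 711 genes 20.1% were called, 8.58% as higher and 11.5% as lower in replicate 2, and 37.6% of detected genes were called. Among the 55 genes with at least 10000 counts in each library it was 89.1%. The 4 called members, 3 higher and 1 lower, had at least 20076 counts in each library, so their number is not a result about the members. This test compares the libraries and no conditions. In log2 of replicate 2 over replicate 1, Mir17 differed by 0.26 (95% interval of counting error 0.25 to 0.27; exact p below the smallest number the software holds) and Mir20a by 0.22 (0.20 to 0.23; exact adjusted p = 1.28e-194). Mir18 differed by 0.08 (0.05 to 0.10; exact adjusted p = 1.13e-08). Mir92-1, at the far end of the transcript, fell by 0.11 (exact adjusted p = 5.96e-17). Mir19a at 0.12 (-0.07 to 0.32) and Mir19b-1 at -0.13 (-0.47 to 0.22) did not pass the test (exact adjusted p = 0.465 and 0.704). The interval of Mir19a holds the differences of both Mir17 and Mir20a. That of Mir19b-1 holds the differences of Mir18, Mir92-1 and, at its upper end, Mir20a. It reaches a difference as large as that of Mir17 only as a lower level in replicate 2. The median absolute difference was 0.13 in log2 over the members and 0.17 over the 367 detected genes.

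The higher cluster level in replicate 2 lay in the miR-17 seed pair. Mir17 and Mir20a together stood at 67663 CPM in replicate 1 and 80119 CPM in replicate 2, while Mir18 and Mir92-1 together stood at 16377 and 16181 CPM. The share of Mir17 and Mir20a in the cluster of the cluster was 80.3% in replicate 1 and 83.04% in replicate 2, and that of Mir18 and Mir92-1 was 19.4% and 16.8%. The share of Mir92-1 alone was 10.3% (10.2 to 10.4) in replicate 1 and 8.35% (8.26 to 8.43) in replicate 2. These shares do not depend on how the libraries are scaled. The composition of the counted reads of the cluster thus differed between the libraries beyond counting error, by at most 2.31 percentage points for any member. Reads that mapped to several places were 36.7% of all reads in replicate 1 and 32.0% in replicate 2. How far reads left out at Mir92-1 and Mir19b-1 changed these shares was not tested.

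**Figure D4:**
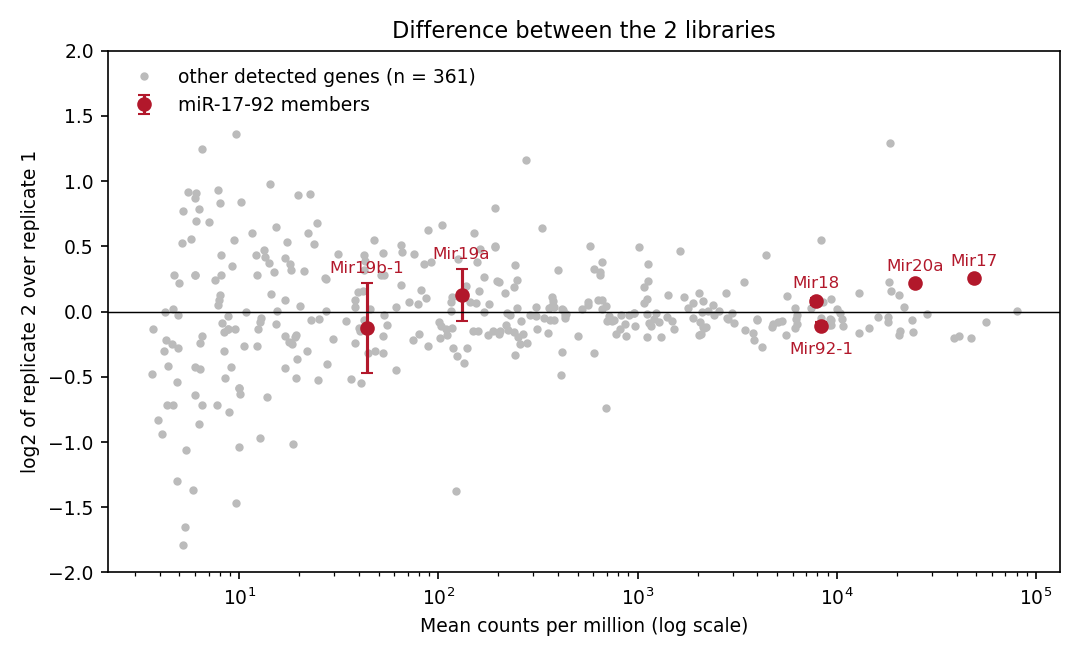
The log2 ratio of replicate 2 over replicate 1 is plotted against mean counts per 1000000 (log axis) for the 367 detected genes, with the 6 members in red and their 95% counting intervals. Mir17 and Mir20a lie above 0 and Mir92-1 below, while the intervals of Mir19a and Mir19b-1 cross 0.

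Other microRNAs give a scale for these levels. The gene with the pair of levels most like each member, by Euclidean distance between log2 CPM in the 2 libraries, was Mirlet7g for Mir17 (distance 0.34), Mir21a for Mir20a (0.21), Mir23b for Mir18 (0.14), Mir10a for Mir92-1 (0.03), Mir29c for Mir19a (0.05) and Mir26a-2 for Mir19b-1 (0.08). Of these, Mir23b, Mir29c and Mir26a-2 share a word with another locus, so their own counts are uncertain. A list of 9 microRNAs tied to growth arrest and proliferation held 8 counted genes, 2 of them sharing a word with each other (Mir16-1 and Mir16-2). None of the 8 exceeded Mir17 in both libraries, and only Mirlet7g, a let-7 gene that restrains proliferation, exceeded Mir20a in both. Mirlet7g and Mir17 could not be ranked: Mirlet7g was higher in replicate 1 (50434 against 44735 CPM) and lower in replicate 2 (43801 against 53483 CPM). In both libraries, 3 of the 8 exceeded Mir18 and 2 exceeded Mir92-1, whose count may be too low. Mir15a, the antiproliferative partner of Mir16-1, lay close to the middle tier at 8572 ± 324 CPM. Of the 8 genes, 7 exceeded Mir19a in both libraries. The exception was Mir34a, a p53 target, at 52.6 ± 8.07 CPM.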

How the data were processed

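MicroRNA sequencing of 2 embryonic liver libraries was used. The authors deposited raw read counts per gene with GENCODE annotation M4 on mm10, per the lists of files. Which aligner and counter were used is not given in the sources used here. Sense counts were scaled to counts per 1000000 of their total; rows for unmapped, multi-mapped and unassigned reads, 62.1% of reads in replicate 1 and 61.8% in replicate 2, stayed out of it. Names and positions came from GENCODE M21 on the same build (1894 of 1973 genes matched, all 6 members with the same identifier), and sequences from RefSeq. A read stands for a whole mature strand, so counts were not divided by length. The library test used scipy 1.17.1 in Python 3.11.15. It was tried on simulated counts with counting error alone, for the share of changed genes it called. Its rate of false calls was not recorded there. Alternative scalings came from edgeR 4.0.16 (TMM) and DESeq2 1.42.0, and folding energies from RNAfold 2.7.2. Genes named are the members, the nearest gene to each, the 4 seed families, the fixed lists and the clusters with the largest and smallest spans. Members and lists were chosen with earlier results of these data known.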

Additional observations from a re-analysis of the deposited data

How the results depend on the processing

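Of 145 recomputed values, 28 moved beyond the spread of the libraries and 1 changed sign. The others are no measure of stability as a whole: leaving out 1 of 2 libraries always keeps a mean within its SD, and members have no opposite-strand counts, so their shares and ratios are the same with both strands by construction. Without replicate 1 the log2 ratio of Mir92-1 to Mir18 turned to -0.0133, and without replicate 2 it was 0.17. With both strands in the total, the cluster held 8.09% and Mir18, Mir19a, Mir19b-1 and Mir92-1 stood at 7087, 117, 39.1 and 7492 CPM. With all reads as denominator the cluster held 3.08%, and Mir17, Mir18, Mir19a, Mir20a, Mir19b-1 and Mir92-1 stood at 16733, 2696, 44.5, 8444, 14.9 and 2850 CPM; these shifts come from the larger total. Over the 4 members that share no word, Mir17, Mir18, Mir19a and Mir20a held 59.9%, 9.70%, 0.160% and 30.3%, and the span was 8.55. As shares of all 6 members, undivided counts gave the same genes 54.3%, 8.78%, 0.145% and 27.4%. Counts divided by hairpin length, chosen after seeing the data, gave 58.1%, 8.22%, 0.159% and 23.0%, again as shares of all 6 members. The log2 ratios then were 2.82 for Mir17 to Mir18, 5.69 for Mir18 to Mir19a, -7.18 for Mir19a to Mir20a, 8.85 for Mir20a to Mir19b-1, -7.70 for Mir19b-1 to Mir92-1, 1.33 for Mir17 to Mir20a and 0.34 for Mir92-1 to Mir18. TMM and DESeq2 scaling moved no level beyond the spread, and the same 4 members were called under each of the 4 alternatives of the library test, with 135 to 153 genes called in place of 143. Words of 18 or 22 bases also gave 2 members with a copy. No paired analysis was possible because there is a single group.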
